A study of Mus musculus with 16 samples.

Results

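The prolactin receptor and serotonin axis was described through 10 genes of the 22869 in the deposited RNA table, each matched by its gene symbol. They are the receptor genes Prlr and Ghr, the serotonin synthesis genes Tph1, Tph2 and Ddc, the vesicular monoamine transporter genes Slc18a1 and Slc18a2, the serotonin receptor genes Htr1d and Htr2b, and Maob, which encodes an enzyme of monoamine breakdown. All 10 had a row in the RNA table and a position in the genome build mm9, and 9 passed the filter on low counts.

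The series compared pancreatic β cells, the insulin-secreting cells of the islet, between old and young mice. RNA came from live GFP-positive β cells sorted from MIP-GFP/Bl6 mice, in which the mouse insulin promoter drives green fluorescent protein. Old mice were labelled 15, 16 and 17 months in the 3 old pools, young mice 4 to 6 weeks in the 2 young pools, and a pool held 5 to 10 mice by the design text. For H3K4me1, H3K27me3 and bisulfite sequencing there was 1 library of sorted C57Bl6 β cells per age, labelled 16 to 18 months and 4 to 6 weeks. The design text gives the old bisulfite pool 18 to 22 months, an age that differs from its label. It also names 2 old H3K27me3 replicas, of which 1 list was analysed here. H3K27ac was mapped in 1 young library. All groups are of Bl6 background with no deletion or treatment named, and the sources used here do not state the sex of the animals.

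Prolactin and placental lactogen act on islets through the prolactin receptor, which signals through JAK2 and STAT5. In rodent pregnancy this signal drives β-cell proliferation and strongly raises the tryptophan hydroxylases, so that β cells make serotonin. Serotonin is made from tryptophan by a tryptophan hydroxylase and then by dopa decarboxylase, is packed into secretory vesicles, and can act back on β cells through their serotonin receptors. The growth hormone receptor signals through the same kinase and STAT5, and prolactin and growth hormone are related hormones.

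Total gene counts were 23559908 to 33562822 in old RNA libraries. The young RNA libraries were shallower, at 6377619 and 12892123, and are called the shallower and the deeper one. β-cell markers summed to between 333090 and 438601 CPM (counts scaled to the library size with TMM factors) in old libraries, against 311888 in the shallower and 256850 in the deeper young library, and 12 of 12 had counts at both ages. Marker sums of several other cell types were lower in old libraries: stellate and stromal markers summed to 11.8 to 14.6 CPM in old libraries against 374 and 4025 CPM in the shallower and deeper young library, and endothelial markers to 69.6 to 100 CPM against 576 and 1184 CPM. δ and PP cell markers summed to 235 to 483 CPM in old libraries against 3147 and 9669 CPM in the shallower and deeper young library, and acinar markers to 205 to 231 CPM against 1727 and 2302 CPM. α-cell markers overlapped between ages and summed to 1306 to 2193 CPM in old libraries, against 2131 and 32076 CPM in the shallower and deeper young library. Mast-cell markers, whose cells also make and store serotonin, summed to 0.789 to 2.86 CPM in old libraries against 31.7 and 19.2 CPM in the shallower and deeper young library, and 7 of 11, Cpa3, Mcpt4, Tpsb2, Tpsab1, Fcer1a, Ms4a2 and Mcpt1, had no count in old cells. The part of these cell types in the results for the 10 genes was not tested. In sorted bulk samples, fewer cells of a type and less RNA per cell cannot be told apart.

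Of the 9 genes tested, 1 rose in old cells and 0 fell (edgeR quasi-likelihood test, Benjamini-Hochberg threshold 0.05), where 11.1% of all 15544 tested genes were called, 3.17% higher and 7.93% lower in old cells. The gene that rose was Ghr. In 5 genes, Ghr, Tph1, Ddc, Slc18a1 and Maob, every old library lay above every young library, a pattern that 24.7% of tested genes had. In 1 gene, Slc18a2, every old library lay below, against 24.3% of tested genes. The remaining 3, Prlr, Tph2 and Htr2b, overlapped between ages. The median log2 fold change, old over young, was 0.66 over the 9 genes and -0.05 over all tested genes. It was 0.90 over the 12 β-cell markers, of which 4 were called higher and 0 lower. Marker medians of the other cell types lay between -7.74 and -1.61.

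**Figure D1:**
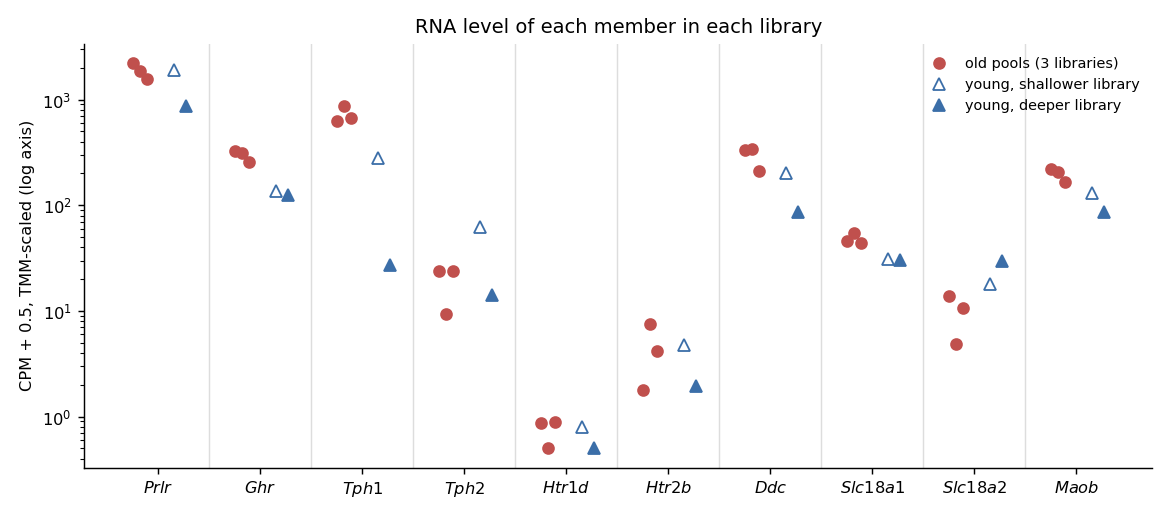
CPM plus 0.5 on a log axis for each of the 10 genes (horizontal axis), with circles for the 3 old libraries and triangles for the shallower (open) and deeper (filled) young library. Old circles lie above both young triangles in 5 genes, and Tph1 has the widest gap between the young libraries, 281 and 26.5 CPM.

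Prlr encodes the prolactin receptor. It had 2208, 1872 and 1582 CPM in old libraries, against 1909 CPM in the shallower young library and 868 CPM in the deeper one. The shallower young library lay among the old ones and the deeper one below them all. Prlr averaged 1887 ± 313 CPM in old cells (SD, n = 3) and 1388 ± 736 CPM in young cells (SD, n = 2), and its log2 fold change of 0.43 (SE 0.35) did not pass the test (adjusted p = 0.449, edgeR). The young libraries decided this value: the log2 fold change was 1.12 without the shallower and -0.024 without the deeper one.

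The genes most like Prlr in pattern, by the root mean square difference of centred log2 CPM over the 5 libraries among 11216 genes, were Mospd2 at 0.0576, the clone 2900056M20Rik at 0.0596 and Nptn at 0.0666. Mospd2 had 28.2, 23.6 and 20.1 CPM in old libraries, against 26.8 CPM in the shallower young library and 11.3 CPM in the deeper one. Like Prlr, it was low in the deeper young library.

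Prlr lies on the plus strand of chromosome 15, and its named transcript starts at base 10106993. Within 1000 bases of this start 52 CpGs were covered in both bisulfite libraries by at least 5 reads, and their mean methylation was 22.5% in old and 25.1% in young cells. A young H3K27ac region (10107477 to 10108696), a mark of active promoters and enhancers, lay just after the start. Inside it 6.84% of old calls and 15.4% of young calls were methylated, a difference below the 10 percentage points required for a call. The Prlr span also holds transcripts that the deposited position table leaves unnamed and RefSeq assigns to Prlr, and one of them starts 46668 bases further in, inside a young H3K27ac region (10152516 to 10155873). Around this internal start 7 CpGs averaged 39.8% methylation in old and 41.0% in young cells.

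The promoter sequences of both starts are shown because they differ in CpG content and in the STAT5 motif. Each runs from 250 bases before to 50 bases after the RefSeq start, from RefSeq's table of build GRCm38.p6, plus strand, with CpGs in capitals. The named start lies at chr15:10176988-10177287 and the internal start at chr15:10223656-10223955.
Prlr named start: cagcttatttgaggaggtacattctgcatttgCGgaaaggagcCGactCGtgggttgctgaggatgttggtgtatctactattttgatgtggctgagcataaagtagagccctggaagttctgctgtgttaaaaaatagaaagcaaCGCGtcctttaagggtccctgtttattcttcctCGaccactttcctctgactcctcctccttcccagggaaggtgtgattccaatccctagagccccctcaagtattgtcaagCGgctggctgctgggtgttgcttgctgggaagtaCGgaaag
Prlr internal start: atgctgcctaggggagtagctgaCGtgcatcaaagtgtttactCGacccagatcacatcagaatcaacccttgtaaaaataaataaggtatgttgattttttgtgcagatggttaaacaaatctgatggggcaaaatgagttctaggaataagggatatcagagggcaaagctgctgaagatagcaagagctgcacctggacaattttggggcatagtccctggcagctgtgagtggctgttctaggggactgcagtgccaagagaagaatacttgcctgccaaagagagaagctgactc
The 8 CpGs printed for the named start averaged 43.5% methylation in old and 34.4% in young cells, and 6 of 8 were higher in old cells, the opposite direction to the mean of its wider window. They had 3 to 20 old and 10 to 23 young reads each. The 2 CpGs of the internal start were each methylated in 10% of calls in old and 0% in young cells. The STAT5-type motif TTCNNNGAA, which reads the same on both strands, occurs in the internal start and in no other of 14 promoter sequences that RefSeq gives for 8 of the 10 genes. It occurs in 8.30% of 32851 mouse promoters of this length, and a match describes letters and not binding.

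Ghr encodes the growth hormone receptor, which uses JAK2 as Prlr does. It had 324, 311 and 256 CPM in old libraries, against 137 CPM in the shallower young library and 126 CPM in the deeper one. All 3 old libraries lay above both young ones, which were close to each other. Ghr averaged 297 ± 36.3 CPM in old cells (SD, n = 3) and 131 ± 7.95 CPM in young cells (SD, n = 2), 2.26-fold higher, with a log2 fold change of 1.17 (SE 0.23, adjusted p = 0.0227, edgeR). The log2 fold change stayed between 1.04 and 1.29 over 9 alternatives. The call ended when any old library was left out, with adjusted p of 0.105, 0.0873 and 0.0567 without old library 1, 2 and 3 (edgeR), and over all 9 alternatives adjusted p ran between 4.14e-05 and 0.105. In these 3 fits 2.22, 2.97 and 2.44% of all tested genes were called, against 11.1% with all libraries.

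The deposited table also counts the shorter Ghr transcripts NM_001048147 and NM_001048178 beside the long transcript NM_010284. The counts of the shorter ones were 27.8 to 29.8% of those of the long one in old libraries and 19.5 to 25.1% in young libraries. The old libraries lay above both young ones in this ratio, which was not tested.

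Around the Ghr start (chromosome 15, minus strand, base 3533230) 75 CpGs averaged 6.84% methylation in old and 10.9% in young cells, and a young H3K27ac region (3531299 to 3533365) covered it. Within that region 2.51% of old calls and 6.67% of young calls were methylated. Both values are low, and their difference did not reach the 10 points required. The promoter sequence is shown for its density of CpGs, 23 in all, in capitals (RefSeq, GRCm38.p6, chr15:3583303-3583602, minus strand). Its RefSeq start has a shift of -122 bases, upstream of the deposited one.
Ghr: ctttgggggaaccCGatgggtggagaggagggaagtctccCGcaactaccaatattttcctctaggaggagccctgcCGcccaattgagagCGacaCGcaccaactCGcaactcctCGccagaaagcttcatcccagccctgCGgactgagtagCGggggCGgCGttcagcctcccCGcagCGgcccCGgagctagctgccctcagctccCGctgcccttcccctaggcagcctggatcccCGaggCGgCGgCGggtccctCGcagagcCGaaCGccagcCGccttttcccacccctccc
These 23 CpGs averaged 4.85% in old and 1.04% in young cells, with 13 higher and 5 lower in old cells, the opposite direction to the wider window and the H3K27ac region. They had 6 to 64 old and 1 to 35 young reads each.

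Tph1 encodes the tryptophan hydroxylase that pregnant rodent β cells raise. It had 622, 864 and 670 CPM in old libraries, against 281 CPM in the shallower young library and 26.5 CPM in the deeper one. Every old library lay above both young ones, and the ratio between the young libraries exceeded that between any old library and the shallower young one. Tph1 averaged 719 ± 128 CPM in old cells (SD, n = 3) and 154 ± 180 CPM in young cells (SD, n = 2), and its log2 fold change of 2.21 (SE 0.81) did not pass the test (adjusted p = 0.111, edgeR). The log2 fold change was 4.76 without the shallower young library and 1.35 without the deeper one. Tph1 was called in 3 of the 9 alternatives, which include the fits with a single young library. Over all 9 alternatives adjusted p reached 0.237 (edgeR).

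Tph1 lies on the minus strand of chromosome 7 and has a proximal start at base 53922718 and an upstream start at base 53927907. H3K4me1, a mark of enhancers, was listed within 1000 bases of the proximal start at both ages, and in young cells it lay in an H3K27me3 region (53910001 to 53931000), a mark set by Polycomb repressive complex 2. No old H3K27me3 region overlapped it. The proximal start showed similar methylation at both ages over its whole window of 46 CpGs, 43.4% of old and 43.9% of young calls (adjusted p = 0.878, Fisher's exact test on the calls of 1 library per age), with means over CpGs of 40.8% in old and 45.9% in young cells. Within 250 bases, however, 23 CpGs averaged 13.7% in old and 25.4% in young cells.

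That difference was widest at the distal end of the promoter, which is why its sequence is shown (RefSeq, GRCm38.p6, chr7:46667328-46667627, minus strand, written in the direction of transcription, CpGs in capitals).
Tph1 proximal start: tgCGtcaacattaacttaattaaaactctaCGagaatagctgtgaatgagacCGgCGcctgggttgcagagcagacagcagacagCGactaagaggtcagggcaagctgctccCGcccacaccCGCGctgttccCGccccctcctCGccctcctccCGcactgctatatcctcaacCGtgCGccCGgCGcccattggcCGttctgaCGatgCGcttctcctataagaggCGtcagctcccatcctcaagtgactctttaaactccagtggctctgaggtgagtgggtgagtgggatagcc
The RefSeq start of this sequence lies 29 bases upstream of the deposited one. In the first 100 bases 5 of 5 CpGs were less methylated in old cells, with means of 2.98% in old and 44.1% in young cells. They stood at 11.8, 0, 0, 0 and 3.12% in old cells, against 64.7, 46.2, 52.9, 40 and 16.7% in young cells, in the order of the sequence. The 11 CpGs of the next 100 bases, where capitals are densest, averaged 14.9% in old and 13.3% in young cells. Coverage over the 19 CpGs was 13 to 36 reads in old and 13 to 32 reads in young cells.

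The H3K4me1 peak over the proximal start (53922648 to 53922774) held 3 methylated of 32 calls in old cells, 9.38% (Wilson 95% interval 3.24 to 24.2%), and 24 of 56 in young cells, 42.9% (30.8 to 55.9%), with adjusted p = 0.00606 by Fisher's exact test. A second H3K4me1 peak further upstream (53965553 to 53965679, centre at -42898 bases) held 0 of 65 methylated calls in old cells (upper bound 5.58%), against 14 of 26 in young cells, 53.8% (35.5 to 71.2%), with adjusted p = 2.43e-08. Of its 4 CpGs 3 lie within 8 bases with 6 young reads each, so the same reads cover them. This p is therefore too small and the intervals are too narrow. The CpGs just beside it were at 0 to 15.9% in old and 0 to 20.6% in young cells apart from the farthest one. These intervals and tests cover counting error in 1 library per age and compare those libraries only.

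Tph2 encodes the second tryptophan hydroxylase, the main form of the brain. It had 23.5, 8.92 and 23.5 CPM in old libraries, against 61.9 CPM in the shallower young library and 13.7 CPM in the deeper one. The ages overlapped, and the shallower young library was the highest of the 5. Tph2 averaged 18.7 ± 8.43 CPM in old cells (SD, n = 3) and 37.8 ± 34.0 CPM in young cells (SD, n = 2), with a log2 fold change of -1.03 (SE 0.67) that did not pass the test (adjusted p = 0.342, edgeR). The direction turned to 0.44 without the shallower young library and was -1.74 without the deeper one. The shallower young library thus held the higher level of both hydroxylases among the young libraries.

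Around the Tph2 start (chromosome 10, base 114622078) methylation was 19.6% of calls in old and 8.64% in young cells over 15 CpGs, a difference past the threshold when calls were summed (adjusted p = 0.00023, Fisher's exact test). Weighted equally, the CpGs averaged 23.9% in old and 16.0% in young cells, below the 10 points required. An H3K4me1 peak lay within 1000 bases of the start in the old list and none in the young list, and 4 H3K27me3 regions lay within 50 kb in the young list against 0 in the old list.

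Ddc encodes aromatic L-amino acid decarboxylase, which makes serotonin from 5-hydroxytryptophan. It had 336, 343 and 212 CPM in old libraries, against 202 CPM in the shallower young library and 86.0 CPM in the deeper one. Every old library lay above both young ones, the lowest old library only just. Ddc averaged 297 ± 73.6 CPM in old cells (SD, n = 3) and 144 ± 82.0 CPM in young cells (SD, n = 2), with a log2 fold change of 1.03 (SE 0.40) that did not pass the test (adjusted p = 0.128, edgeR). The log2 fold change was 1.79 without the shallower young library and 1.13 (adjusted p = 0.0444, edgeR) without a filter on low counts. The latter was the only alternative with both young libraries that called it. Over the 9 alternatives the log2 fold change lay between 0.55 and 1.79. The gene 1700042O10Rik lies on the opposite strand within Ddc, and the sources used here do not say if counting used strand.

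Ddc showed the one promoter difference in CpG methylation that held in both ways of counting. Around its downstream start (chromosome 11, minus strand, base 11790411) 37.8% of calls were methylated in old cells (Wilson 95% interval 32.7 to 43.2%) and 63.6% in young cells (57.9 to 68.9%), with adjusted p = 1.47e-09 by Fisher's exact test. Taken CpG by CpG, the 15 CpGs averaged 43.2% in old and 65.0% in young cells (adjusted p = 3.68e-07, Cochran-Mantel-Haenszel test), and 12 of 15 were lower in old cells. The gap was widest near the start: 42 bases after it methylation was 18.5% in old and 61.1% in young cells, at 136 bases 0% in old and 41.7% in young cells, and at 157 bases 20% in old and 91.7% in young cells. At a distance of -276 bases methylation was 47.1% in old and 95% in young cells, and at -701 bases 71.4% in old and 100% in young cells. Old cells were the more methylated ones at distances of 893, 899 and -867 bases. The young H3K27ac region over this start (11784753 to 11791207) was called in the same direction, with 35.4% of old calls (32.7 to 38.1%) and 47.1% of young calls (44.2 to 50.1%) methylated over 55 CpGs (adjusted p = 7.70e-08, Fisher's exact test).

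The sequence around the downstream start is sparse in CpGs (RefSeq, GRCm38.p6, chr11:11890359-11890658, minus strand, CpGs in capitals), which is why it is shown beside that of Tph1.
Ddc downstream start: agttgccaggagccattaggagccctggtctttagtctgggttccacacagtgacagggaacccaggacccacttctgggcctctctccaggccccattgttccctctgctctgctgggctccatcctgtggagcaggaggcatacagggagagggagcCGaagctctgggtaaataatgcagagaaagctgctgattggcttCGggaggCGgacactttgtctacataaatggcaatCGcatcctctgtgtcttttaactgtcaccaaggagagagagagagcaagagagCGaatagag
It holds 5 CpGs. The 4 before the start had at most 4 young reads each and were left out, so of the printed bases the last CpG, 42 bases after the start, carries the comparison.

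The upstream Ddc start (base 11798147) moved the other way in pooled calls, with 74.9% methylated in old and 64.2% in young cells over 21 CpGs (adjusted p = 0.000925, Fisher's exact test). Its CpGs averaged 70.4% in old and 65.7% in young cells and were not called CpG by CpG. H3K4me1 peaks in both lists lay within 1000 bases of the upstream start and none within 1000 bases of the downstream one. A further H3K4me1 peak 45658 bases inside the gene (11744690 to 11744816) had 29.1% of old and 44.0% of young calls methylated (adjusted p = 0.0354, Fisher's exact test), mostly through 1 CpG at 13.8% in old and 56.8% in young cells.

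**Figure D2:**
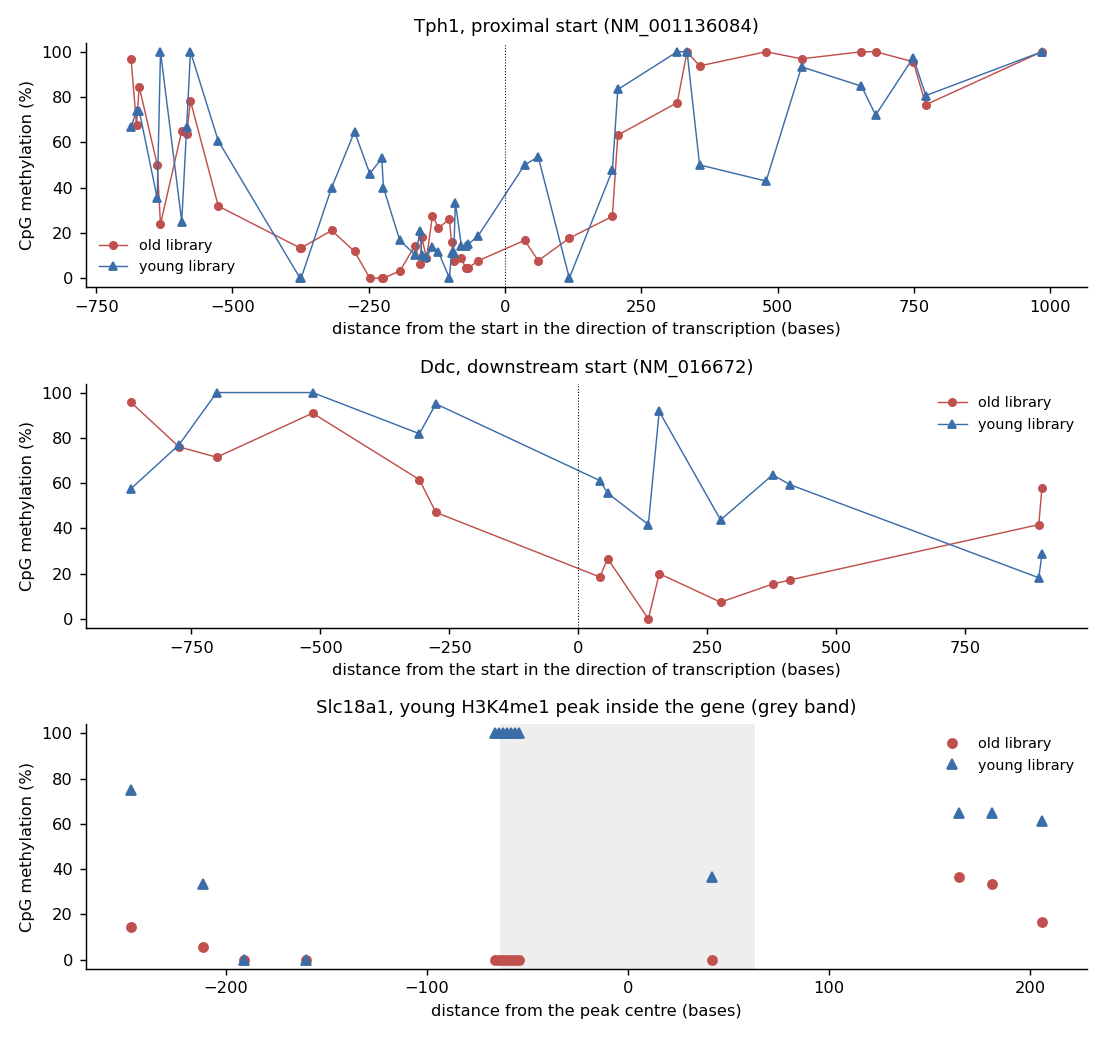
CpG methylation in percent (vertical axis) in the old (circles) and young (triangles) library, by distance from the Tph1 proximal start, from the Ddc downstream start and from the centre of a young H3K4me1 peak inside Slc18a1. The old library is lower at 12 of 15 CpGs around the Ddc start, and in the Slc18a1 peak the CpGs bunched at its edge stand at 0% in old and 100% in young cells.

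The vesicular monoamine transporters load serotonin and other amines into secretory granules. Slc18a1 had 45, 54.5 and 43.6 CPM in old libraries, against 30.5 CPM in the shallower young library and 29.5 CPM in the deeper one. All old libraries lay above both young ones, which were nearly equal. Slc18a1 averaged 47.7 ± 5.93 CPM in old cells (SD, n = 3) and 30.0 ± 0.671 CPM in young cells (SD, n = 2), with a log2 fold change of 0.66 (SE 0.31) that did not pass the test (adjusted p = 0.200, edgeR).

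Slc18a2 is the member in which old libraries lay below. It had 13.3, 4.40 and 10.1 CPM in old libraries, against 17.6 CPM in the shallower young library and 29.2 CPM in the deeper one. No old library reached a young one, and both groups spread widely. Slc18a2 averaged 9.29 ± 4.53 CPM in old cells (SD, n = 3) and 23.4 ± 8.20 CPM in young cells (SD, n = 2), with a log2 fold change of -1.34 (SE 0.58) that did not pass the test (adjusted p = 0.167, edgeR). Over 9 alternatives the log2 fold change lay between -1.71 and -0.93, and none called it. The genes most like Slc18a2 in pattern were BC048403 at 0.110, Mcm6, part of the replicative helicase, at 0.117 and Rarg, a retinoic acid receptor, at 0.185, by the same measure as for Prlr. Mcm6 had 8.10, 2.79 and 7.39 CPM in old libraries, against 10.7 CPM in the shallower young library and 16.9 CPM in the deeper one, so that old library 2 was the lowest and the deeper young library the highest for both genes.

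Both transporter starts lie in CpG-rich, weakly methylated windows. Around the Slc18a1 start (chromosome 8, minus strand, base 71613121) 90 CpGs averaged 6.91% in old and 12.3% in young cells, and within 250 bases 24 CpGs averaged 2.68% in old and 15.8% in young cells. A young H3K27ac region (71612060 to 71614246) covered this start and that of the opposite-strand gene Atp6v1b2, so the window is shared by both genes. Around the Slc18a2 start (chromosome 19, base 59335368) 73 CpGs averaged 18.2% in old and 17.6% in young cells. An H3K4me1 peak of the old list just after this start (59335450 to 59335570) had 6.90% of old and 16.0% of young calls methylated, a difference below the 10 points required. The peak of the young list beside it (59335693 to 59335819) had 3.40% of old and 2.52% of young calls methylated. Slc18a2 was the one gene of the 10 whose start lay in H3K27me3 at both ages, from 59331001 to 59356000 in old and from 59329001 to 59356000 in young cells.

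Inside Slc18a1, 11813 bases after its start, a young H3K4me1 peak (71601245 to 71601371) had 0 of 38 methylated calls in old cells (Wilson 95% upper bound 9.18%) and 38 of 38 in young cells (lower bound 90.8%), with adjusted p = 1.04e-19 by Fisher's exact test. The 5 CpGs counted lie within 9 bases with 7 to 10 old and 6 to 8 young reads each. The same reads thus cover them, so this p is too small and the interval bounds are too tight. A further CpG in the peak, left out for its 4 old reads, stood at 0% in old and 36.4% in young cells. Widened to 500 bases each side of its centre, the peak held 12 CpGs that averaged 15.4% in old and 85.4% in young cells. Beyond the bunched CpGs, the 3 on the far side of the peak stood at 16.7 to 36.4% in old and 61.5 to 65% in young cells. Those on the near side, with 3 to 6 young reads each, stood at 0 to 14.3% in old and 0 to 75% in young cells.

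**Figure D3:**
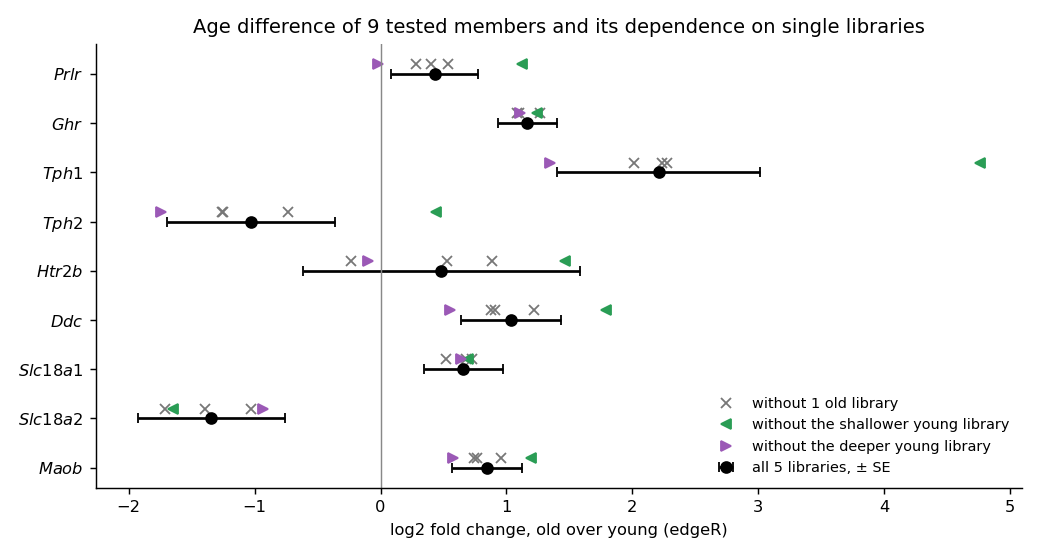
Log2 fold change of RNA, old over young, for the 9 tested genes (black points, bars of 1 SE), with the value after leaving out each old library (crosses) and each young library (coloured triangles). Tph1 lies between 1.35 and 4.76 and Prlr between -0.024 and 1.12 depending on the young library left out, whereas Ghr stays between 1.08 and 1.27.

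Serotonin receptors were scarce in these libraries. Htr2b, a Gq-coupled receptor tied to β-cell proliferation in mouse pregnancy, had 1.28, 6.98 and 3.72 CPM in old libraries, against 4.25 CPM in the shallower young library and 1.44 CPM in the deeper one. The ages overlapped fully, and its log2 fold change of 0.48 (SE 1.10) did not pass the test (adjusted p = 0.807, edgeR). It turned to -0.23 without old library 2 and to -0.10 without the deeper young library. Psmd1, a proteasome subunit gene, lies on the opposite strand over Htr2b with 101, 103 and 94.4 CPM in old libraries against 41.2 CPM in the shallower young library and 69.9 CPM in the deeper one, and the counts may share reads.

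Htr1d, an inhibitory Gi-coupled receptor, had 10, 0 and 8 counts in old libraries, against 2 counts in the shallower and 0 in the deeper young library. It did not pass the filter on low counts, and no fold is given. Each age had a library with no count.

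The starts of these receptors differed in methylation from each other more than between ages. Around the Htr2b start (chromosome 1, minus strand, base 88008545) 7 CpGs averaged 91.7% in old and 90.2% in young cells. Around the Htr1d start (chromosome 4, base 135979439) 26.4% of calls were methylated in old and 16.4% in young cells over 36 CpGs (adjusted p = 3.90e-06, Fisher's exact test), with means over CpGs of 31.4% in old and 27.6% in young cells, which did not reach 10 points. Within 250 bases its 4 CpGs averaged 96.4% at both ages. The Htr1d start lay in an H3K27me3 region in young cells (135973001 to 135988000) and in none of the old list, with an H3K4me1 peak within 1000 bases in the young list only. Just outside that window an old H3K4me1 peak, centred 1412 bases after the start, overlapped a further young one.

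Maob encodes monoamine oxidase B, which degrades monoamines in the outer mitochondrial membrane. It had 218, 207 and 164 CPM in old libraries, against 131 CPM in the shallower young library and 85.9 CPM in the deeper one. Every old library lay above both young ones. Maob averaged 196 ± 28.5 CPM in old cells (SD, n = 3) and 108 ± 31.8 CPM in young cells (SD, n = 2), with a log2 fold change of 0.85 (SE 0.28) that did not pass the test (adjusted p = 0.0858, edgeR). It passed without a filter on low counts (adjusted p = 0.0469, edgeR) and in no other alternative with both young libraries. Over 9 alternatives its log2 fold change lay between 0.58 and 1.20. Around its start (chromosome X, minus strand, base 16394492) 8.15% of calls were methylated in old and 25.3% in young cells (adjusted p = 1.83e-10, Fisher's exact test), yet the 25 CpGs averaged 21.3% in old and 20.4% in young cells and gave adjusted p = 0.359 CpG by CpG. At Maob the pooled and the equally weighted values thus differed.

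Across the 10 genes, 13 starts were listed and 12 had enough CpGs for a test. When calls were summed, 3 starts were more and 2 less methylated in old cells, where 8.02% of 23291 starts were called, 3.72% higher and 4.3% lower. CpG by CpG, 1 start was called, that of Ddc, where 6.86% of starts were, 2.7% higher and 4.15% lower. Calls summed over CpGs weight each CpG by its reads, which differ between the libraries.

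**Figure D4:**
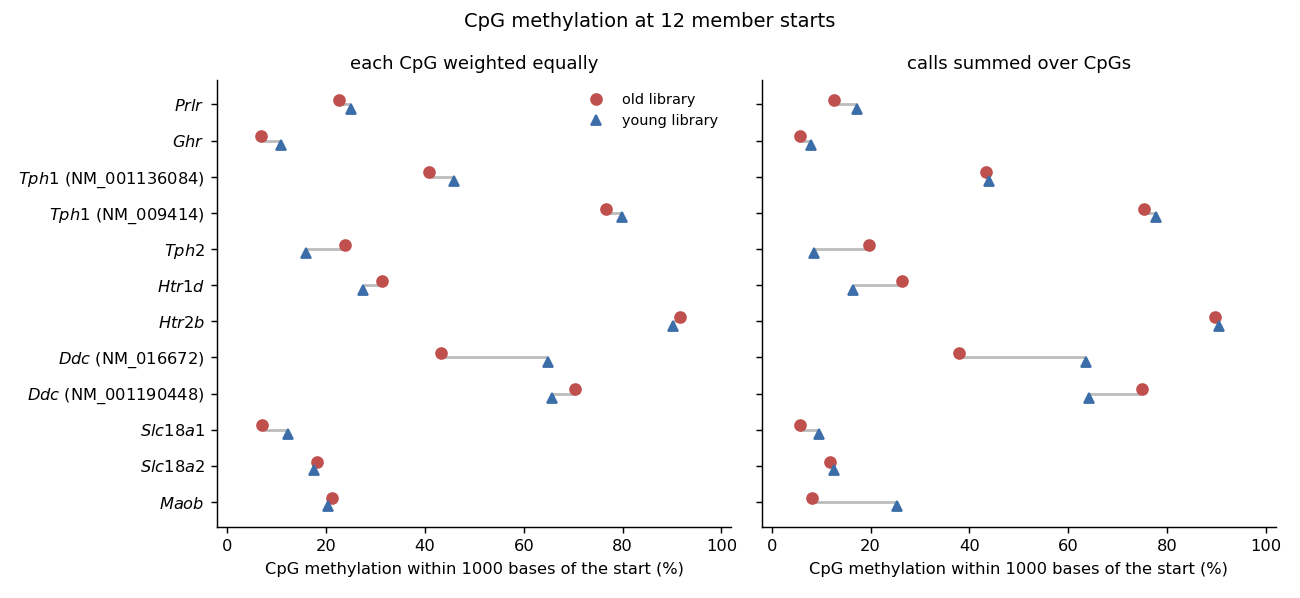
CpG methylation in percent within 1000 bases of 12 gene starts in the old (circles) and young (triangles) library, as the mean of CpGs (left) and as the share of all calls (right). The downstream start of Ddc is apart in both panels, at 43.2% in old and 65.0% in young cells on the left, while Maob is apart on the right only.

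Of 70 H3K4me1 peaks of either list within 50 kb of the 10 genes, 20 held at least 3 covered CpGs and were tested. Of these, 0 were more and 4 less methylated in old cells, where 9.71% of tested peaks were called higher and 17.2% lower. The 4 were those given above near Tph1, Ddc and Slc18a1, and all 4 were also called CpG by CpG. That test too counts a shared read at each CpG, so it adds no separate evidence where the same reads cover several CpGs. With a coverage of at least 10 reads required, 1 peak was called lower. Of 17 young H3K27ac regions near the genes 12 were tested, with 1 called higher and 1 lower, where 3.45% of regions were called higher and 14.3% lower. The higher one lay 23213 bases inside Prlr (10129380 to 10131032), with 72.9% of old and 44.2% of young calls methylated (adjusted p = 0.0128, Fisher's exact test), and was not called CpG by CpG.

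At the starts, H3K4me1 lay within 1000 bases in 4 genes of the old list (Tph1, Tph2, Ddc and Slc18a2) and in 4 of the young list (Tph1, Htr1d, Ddc and Slc18a2), where 28.6% of all starts had such a peak in old and 43.5% in young cells. H3K27me3 lay at a start of 1 gene in old and of 3 in young cells, Slc18a2 in both and Tph1 and Htr1d in the young list. Over all starts 40.1% were covered in old and 26.6% in young cells. A gene is counted here if any of its starts had the mark, whereas the shares are over single starts. H3K27ac lay at 4 starts in young cells, Prlr, Ghr, Ddc and Slc18a1, where 32.9% of starts had it. No gene of the 10 carried both H3K27ac and H3K27me3 at its start in young cells. The share of all starts with both marks is not given here, so this describes the 10 genes only. Within 50 kb, H3K4me1 was listed for 10 of the 10 genes in old and 9 in young cells (74.4% and 84% of all starts), H3K27me3 for 4 in old and 5 in young cells (78.2% and 67.5%), and H3K27ac for 7 in young cells (58.9%). The lists differ in size, with 36207 old and 77291 young H3K4me1 peaks and 38007 old and 31187 young H3K27me3 regions, so presence in 1 list was not tested.

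**Figure D5:**
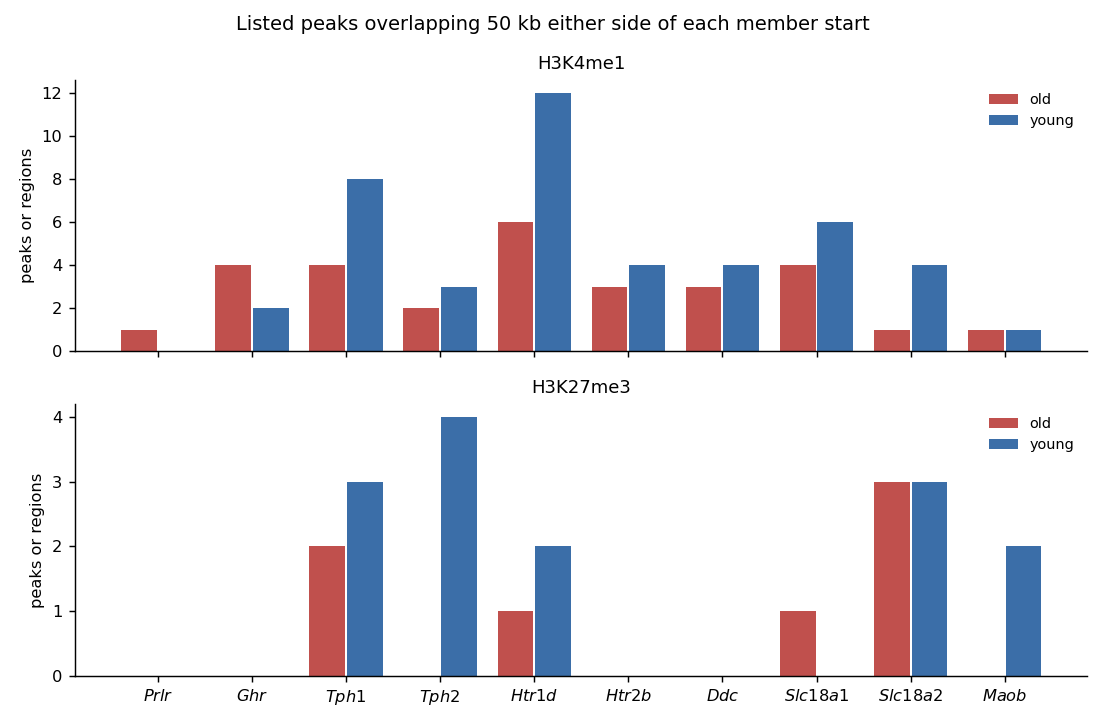
Number of listed H3K4me1 peaks (top) and H3K27me3 regions (bottom) within 50 kb of each gene start, old bars left of young bars. Htr1d has the most H3K4me1 peaks, 6 in the old and 12 in the young list, and Tph2 has 0 old and 4 young H3K27me3 regions.

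Within 50 kb of the starts, the share of methylated calls differed by gene. Maob had the largest loss, 63.9% in old and 71.0% in young cells over 139 CpGs, a difference of -7.10 points, followed by -2.96 points at Ddc and -2.56 points at Prlr. These 3 lay below the 5th percentile of all gene starts, which was -2.02 points, where the median was 2.53 and the 95th percentile 7.72 points. The largest gains were 6.15 points at Htr2b (63.1% in old and 56.9% in young cells) and 4.47 points at Htr1d. The other 5 genes lay between -0.85 points at Slc18a2 and 2.29 points at Tph1, with -0.56 at Tph2, 0.21 at Ghr and 0.65 at Slc18a1. The values depended on the weights of the CpGs and on the start itself: at Maob the difference was -0.77 points without the 1000 bases around the start. With equal weights the differences were -0.67 points at Maob and 0.64 points at Htr2b, -2.68 points at Ddc was the lowest of the 10, and the median over all starts was -0.43 points. These values were not tested. Of 651 tiles of 1000 bases, 12 were at least 20 points higher and 13 at least 20 points lower in old cells, 1.84% and 2%, where 2.21% and 2.28% of tiles were so genome-wide.

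Among 19 tested of 20 genes of JAK2-STAT5 signalling and its inhibitors, 0 rose and 1 fell, with a median log2 fold change of 0.00, where 3.17% of all tested genes rose and 7.93% fell with a median of -0.05. The kinase gene Jak2 had 49.3, 38.4 and 43.9 CPM in old libraries against 20.5 CPM in the shallower young library and 20.1 CPM in the deeper one. Every old library lay above the young ones, with a log2 fold change of 1.10 (SE 0.34) that did not pass the test (adjusted p = 0.0697, edgeR). Stat5b had 40.7, 34.0 and 55.9 CPM in old libraries, against 55.1 CPM in the shallower young library and 106 CPM in the deeper one. It overlapped between ages, at a log2 fold change of -0.90 (adjusted p = 0.148, edgeR), as did Stat5a at -0.19 (adjusted p = 0.814, edgeR).

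Cish and Socs2, feedback inhibitors that STAT5 induces, were not called. Cish had 410, 387 and 375 CPM in old libraries against 315 CPM in the shallower young library and 180 CPM in the deeper one, with a log2 fold change of 0.65 (adjusted p = 0.167, edgeR), and old libraries lay above. Socs2 had 176, 175 and 132 CPM in old libraries against 173 CPM in the shallower young library and 87.6 CPM in the deeper one, with a log2 fold change of 0.30 (adjusted p = 0.591, edgeR), and overlapped. The gene that fell was Gab1, a docking protein of receptor signalling, with 1.02, 0.212 and 1.52 CPM in old libraries against 11.7 CPM in the shallower young library and 106 CPM in the deeper one. Its log2 fold change was -6.03 (SE 1.06, adjusted p = 0.0162, edgeR), and it was not called without old library 1, where 2.22% of all tested genes were called. Like the stromal markers, Gab1 was far higher in the deeper than in the shallower young library, and their part in it was not tested.

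Of 21 genes known to respond to prolactin or placental lactogen in islets, 1 rose and 3 fell, with a median log2 fold change of -0.22, beside 3.17% higher and 7.93% lower over all tested genes. Slc2a2, the glucose transporter GLUT2, rose, with 547, 444 and 432 CPM in old libraries against 252 CPM in the shallower young library and 197 CPM in the deeper one (log2 fold change 1.07, SE 0.24, adjusted p = 0.0315, edgeR). Ccnd1, which encodes cyclin D1, fell, with 36.2, 34.2 and 35.6 CPM in old libraries against 204 CPM in the shallower young library and 172 CPM in the deeper one (log2 fold change -2.42, SE 0.23, adjusted p = 0.00384, edgeR). Mki67, a marker of cycling cells, had 1.92, 1.24 and 2.10 CPM in old libraries against 344 CPM in the shallower young library and 306 CPM in the deeper one, a log2 fold change of -7.55 (SE 0.33, adjusted p = 0.000189, edgeR). In all 3 genes the ages did not overlap and the young libraries were close to each other. Slc2a2 was not called when any old library was left out, where 2.22 to 2.97% of all tested genes were called. It is also among the β-cell markers used here.

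Bcl6, a transcriptional repressor, was the third gene that fell. It had 14.0, 5.46 and 3.19 CPM in old libraries against 64.1 CPM in the shallower young library and 53.0 CPM in the deeper one, a log2 fold change of -2.96 (SE 0.60, adjusted p = 0.0242, edgeR).

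Of 23 further genes of serotonin and monoamine supply and removal, 18 were tested, 0 rose and 1 fell (3.17% and 7.93% of all tested genes), with a median log2 fold change of 0.46. In 8 the old libraries lay above the young ones and in 5 below, as they did in 24.7% and 24.3% of all tested genes. The gene that fell was Tgm2, a transglutaminase that can attach serotonin to proteins and that endothelial and stromal cells also express, with 0.301, 1.61 and 1.10 CPM in old libraries against 43.0 CPM in the shallower young library and 105 CPM in the deeper one (log2 fold change -6.20, SE 0.73, adjusted p = 0.00522, edgeR). It moved with the stromal and endothelial marker sums, whose part in it was not tested.

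Several enzymes of the tetrahydrobiopterin cofactor, which tryptophan hydroxylases need, lay on the side of Tph1 without passing the test. Gch1, which opens its synthesis, had 97.5, 77.4 and 93.2 CPM in old libraries against 55.4 CPM in the shallower young library and 39.1 CPM in the deeper one (log2 fold change 0.91, SE 0.29, adjusted p = 0.0787, edgeR). Pts, Qdpr and Pcbd1 had log2 fold changes of 1.37, 0.97 and 0.82 with adjusted p of 0.0623, 0.0838 and 0.0927 (edgeR), and in each the old libraries lay above both young ones. These 3 were named after their values were seen, as was Gchfr, a regulator of the Gch1 enzyme, which lay on the other side. Gchfr had 3, 0 and 1 counts in old libraries against 22 in the shallower and 17 in the deeper young library (log2 fold change -5.26, adjusted p = 0.0876, edgeR). Maoa, the other monoamine oxidase gene, had 13.9, 11.8 and 8.39 CPM in old libraries against 4.40 CPM in the shallower young library and 5.56 CPM in the deeper one (log2 fold change 1.18, adjusted p = 0.251, edgeR). Slc6a4, the serotonin transporter gene, had 1, 0 and 0 counts in old libraries against 15 in the shallower and 0 in the deeper young library and was not tested.

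Of 12 other serotonin receptor genes 2 passed the filter, and both fell, where 3.17% of all tested genes rose and 7.93% fell. Htr1b, a Gi-coupled receptor, had no count in any old library, against 41 counts in the shallower and 22 in the deeper young library. It averaged 3.80 CPM in young cells, and 3 counts over the old group would amount to 0.0373 CPM (adjusted p = 0.0375, edgeR). Htr3a, a subunit of the serotonin-gated ion channel, had no count in any old library, against 19 counts in the shallower and 133 in the deeper young library, at least 166-fold lower when 3 counts over the old group are taken as the floor (adjusted p = 0.0250, edgeR). Neither was called when any old library was left out, where 2.22 to 2.97% of all tested genes were called. A gene seen in 1 age alone had to differ to pass the filter, and these calls are given as values of the 2 genes and not of the receptor family.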

How the data were processed

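RNA, histone marks and CpG methylation were analysed from the authors' processed files of sorted mouse β cells, for 3 old and 2 young RNA libraries and 1 library per age for each mark and for bisulfite sequencing. The deposited RNA table holds whole-number counts per RefSeq transcript, per the file headers, and the transcript with the highest total stood for each gene. Build mm9 and the tools STAR, Bowtie 0.12.7, CASAVA 1.8.2, edgeR and HOMER are listed by the submitters' processing notes. The deposited CpG tables give a methylated fraction and a coverage per CpG, and methylated calls were recovered as their product, within 0.01 of a whole number. HOMER called H3K4me1 and H3K27ac peaks at a false discovery rate of 0.01, per the file headers, and the deposited score of a peak served for ranking within its list. The sources used here do not name the caller of H3K27me3 regions. A second deposited expression table served only for transcript positions.

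Counts were fitted over the whole table with edgeR 4.0.16 (quasi-likelihood test, TMM factors, filterByExpr, two-sided, R 4.3.3), with Benjamini-Hochberg adjustment over 15544 genes and a threshold of 0.05, after a test on simulated data. Log2 fold changes are old over young. DESeq2 1.42.0, other factors and filters and leaving out each library were alternatives. The young columns are not numbered, so the shallower and the deeper library are told apart by depth. Their names also end in different tags, and the tag with the smaller number belongs to the shallower library. The sources used here do not give the meaning of these tags. Beyond them, nothing in the labels says more of how pools were made, so p-values measure the spread between these pools. Methylation was tested on calls summed over CpGs covered by at least 5 reads in both libraries, with at least 5 CpGs within 1000 bases of a start or 3 in a peak, by two-sided Fisher's exact test, and called at adjusted p below 0.05 and 10 points. Each CpG was also compared with itself and weighted equally, and peaks were also widened, choices made after seeing the data. Median coverage of a CpG was 18 reads in the old and 16 in the young library. Wilson intervals (95%) cover counting error only, and they and both tests take each call as separate. Sequences are RefSeq's for build GRCm38.p6, placed beside mm9 CpGs by their matching CpG spacing. The 10 genes, gene lists and named pathway genes were chosen with earlier results of these data known. All 10 genes are named, with the called genes of each pathway list and Jak2, Stat5a, Stat5b, Cish, Socs2, Htr3a, Slc6a4, Maoa and Gch1 in any case. For Prlr and Slc18a2 the 3 genes closest in centred log2 CPM are named. Replicates differed by more than sampling noise and were kept apart.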

Additional observations from a re-analysis of the deposited data

How the results depend on the processing

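The young group rests on 2 libraries that differ widely, and methylation and marks on 1 library per age, so that age and library cannot be told apart for them. No paired analysis was possible because the young columns carry no replicate numbers. With RLE factors the median log2 fold change of all tested genes moved from -0.05 to -0.17. There 5 prolactin-responsive and 2 JAK2-STAT5 genes were called lower, where 1368 of all 15544 tested genes were. With no filter on low counts 4 of the 10 genes were called higher (where 3.94% of genes were), 2 prolactin-responsive genes higher and 6 lower, 2 JAK2-STAT5 genes lower and 3 monoamine genes higher. In that fit 1669 of 20886 genes were called lower. With DESeq2, which called 19.9% of all genes, 3 genes were called higher in each of these lists, and 6 prolactin-responsive, 3 JAK2-STAT5 and 3 monoamine genes lower. Leaving out 1 library in turn, where all calls ran between 331 and 5467, gave 0 to 5 of the 10 genes higher and 0 to 1 lower, 0 to 5 prolactin-responsive genes higher and 2 to 5 lower, 0 to 3 JAK2-STAT5 genes in either direction, 0 to 4 monoamine genes higher and 1 to 3 lower, and 0 to 3 other serotonin receptors lower. It moved log2 fold changes between -0.23 and 1.47 for Htr2b, -1.74 and 0.44 for Tph2, and -0.024 and 1.12 for Prlr. The starts called, 3 higher and 2 lower, became 0 and 1 at a coverage of 10, 1 and 1 within 500 bases, 0 and 1 at 20 points, and 0 and 1 CpG by CpG. The pooled difference within 50 kb turned to -1.77 points at Ghr (0.21 as reported) at a coverage of 10, to 0.20 at Prlr (-2.56) and -1.70 at Slc18a1 (0.65) without the 1000 bases around the start, and with equal weights to -0.90 at Tph1 (2.29), 0.10 at Tph2 (-0.56), -1.12 at Htr1d (4.47) and -1.11 at Slc18a1. Of H3K4me1 peaks called lower, 4 became 1 at a coverage of 10, 2 among peaks above the median score, and 7, with 2 higher, when widened. Of all widened peaks tested, 18% were called lower and 6.84% higher. The H3K27ac region called higher was lost (0 left) at a coverage of 10 and CpG by CpG, and the lower one (0 left) at 20 points. Where most of a region had to lie in the window, H3K27me3 was at the starts of 0 genes in old and 0 in young cells and near 2 genes in old cells, and H3K27ac at the starts of 2 genes. Above the median score H3K4me1 was at a start of 1 gene in old and of 2 genes in young cells. The cause of these changes was not tested.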
